A study of Drosophila melanogaster with 3 samples.

Results

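A list of 6070 BEAF-32 summits of Drosophila melanogaster embryos, kept by a threshold on replicate agreement, included 360 between protein-coding genes and away from every coding start. These distal intergenic summits were 5.93% of the list (95% Wilson interval 5.36 to 6.55, for counting error only). A summit, the position of highest signal in a peak, was counted here when it lay more than 500 bp from every protein-coding transcript start and outside the span of every protein-coding gene. A further clause of the rule, which removes summits in and around head-to-head gene pairs with starts at most 1000 bp apart, took out 0 summits beyond that distance. Of the other summits, 5214 lay within 500 bp of a coding start and 496 lay at a distance from starts but inside coding genes. All 360 members were measured, with no filter on low values within the list.

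The study precipitated chromatin from whole embryos aged 0 to 14 hours, both sexes pooled, of a transgenic line. The line stably expresses BEAF-32 with green fluorescent protein (GFP) at its C terminus, and an antibody against GFP was used. There were 3 biological replicates of a single group, BEAF-32-GFP embryos, so no treatment or genotype was compared, and all libraries share the transgene and the tag. The labels do not name the promoter that drives the fusion, and whole embryos mix all cell types of many stages, so binding in a few cells and weak binding in many cannot be told apart. Peaks had been called from the pooled replicates and from each replicate, and the list used here is the one that passed the irreproducible discovery rate (IDR), a threshold on how well replicates agree in rank.

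BEAF-32 is a DNA-binding protein of Drosophila named for its role as a boundary element associated factor. It recognises the short string CGATA, often in clusters, and is best known at boundaries between chromosome domains and close to the starts of broadly expressed genes, where many of its sites lie between divergent promoters. The string TATCGATA, which holds CGATA on both strands, is the core recognised by DREF, a factor of replication and growth genes, and the sites of both proteins overlap. Sites far from any coding start are the exception for this protein.

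The sequences at the strongest distal intergenic summits are shown because the number of CGATA copies varies widely among them. Each is the 100 bases on either side of the summit and the summit base in the dm6 reference genome, forward strand, read from the RefSeq copy of that assembly. Capitals mark CGATA and CGTGAC on either strand, and CGTGAC is taken up with the hexamers. The window between myo and ey is chr4:696825-697025, that between stnB and FucTC is chrX:23007561-23007761, that between Ptp4E and CG15468 is chrX:4956031-4956231, and that between hth and CG6465 is chr3R:10675249-10675449.
myo/ey: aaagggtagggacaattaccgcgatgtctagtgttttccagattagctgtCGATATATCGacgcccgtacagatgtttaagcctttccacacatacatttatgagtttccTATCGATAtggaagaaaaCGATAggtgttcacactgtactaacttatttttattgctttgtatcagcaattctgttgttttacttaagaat
stnB/FucTC: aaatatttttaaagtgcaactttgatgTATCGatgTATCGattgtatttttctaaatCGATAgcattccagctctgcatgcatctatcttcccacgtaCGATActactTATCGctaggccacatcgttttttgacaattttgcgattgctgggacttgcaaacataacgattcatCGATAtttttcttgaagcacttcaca
Ptp4E/CG15468: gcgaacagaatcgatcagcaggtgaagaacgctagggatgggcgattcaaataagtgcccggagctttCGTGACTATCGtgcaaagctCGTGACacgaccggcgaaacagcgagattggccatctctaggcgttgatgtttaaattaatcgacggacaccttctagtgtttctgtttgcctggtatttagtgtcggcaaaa
hth/CG6465: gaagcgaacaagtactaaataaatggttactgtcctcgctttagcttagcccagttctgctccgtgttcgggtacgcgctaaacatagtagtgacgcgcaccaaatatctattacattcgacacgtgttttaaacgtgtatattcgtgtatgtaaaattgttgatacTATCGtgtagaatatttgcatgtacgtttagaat

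A second set shows 3 strong summits with the longer string TATCGATA, which the myo/ey window holds too. The summit between lola and psq also holds it, with a signal above those of the CG3168/RpL17 and CG31523/sac summits, and is not printed. The windows shown are chr3L:174602-174802, chrX:6741201-6741401 and chr3R:4479697-4479897. The RpL17 window holds overlapping copies, in which the end of one TATCGATA is the start of the next.
p130CAS/CG7049: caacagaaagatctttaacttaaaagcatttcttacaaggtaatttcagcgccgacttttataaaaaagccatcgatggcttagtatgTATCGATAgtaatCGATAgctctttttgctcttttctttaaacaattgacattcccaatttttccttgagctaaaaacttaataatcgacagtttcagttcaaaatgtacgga
CG3168/RpL17: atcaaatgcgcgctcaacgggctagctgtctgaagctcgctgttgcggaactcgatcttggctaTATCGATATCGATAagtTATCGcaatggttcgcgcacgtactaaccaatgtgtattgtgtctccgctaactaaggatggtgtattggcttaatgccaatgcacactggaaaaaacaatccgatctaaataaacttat
CG31523/sac: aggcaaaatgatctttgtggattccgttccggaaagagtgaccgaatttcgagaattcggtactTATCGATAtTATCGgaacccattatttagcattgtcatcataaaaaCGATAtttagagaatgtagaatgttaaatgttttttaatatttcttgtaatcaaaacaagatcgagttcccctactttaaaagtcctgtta

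A further set shows strong summits with no CGATA within 100 bp. Their windows are chrX:1517600-1517800, chr3L:22078151-22078351 and chr3R:7092028-7092228. The inc and RpLP0 windows hold CGTGAC once each, and the alphaTub84B window holds neither string.
inc/Mur2B: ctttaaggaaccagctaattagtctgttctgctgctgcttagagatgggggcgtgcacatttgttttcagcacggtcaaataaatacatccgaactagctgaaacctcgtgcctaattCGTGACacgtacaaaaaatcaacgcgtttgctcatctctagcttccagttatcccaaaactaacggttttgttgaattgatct
RpLP0/Sfp79B: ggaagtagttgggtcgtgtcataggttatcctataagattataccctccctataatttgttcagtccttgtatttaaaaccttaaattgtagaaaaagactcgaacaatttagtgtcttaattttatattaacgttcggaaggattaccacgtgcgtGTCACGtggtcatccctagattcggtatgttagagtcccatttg
alphaTub84B/e(y)2b: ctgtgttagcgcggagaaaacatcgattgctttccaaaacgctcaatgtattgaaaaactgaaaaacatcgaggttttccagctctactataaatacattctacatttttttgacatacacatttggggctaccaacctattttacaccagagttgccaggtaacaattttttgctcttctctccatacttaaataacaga

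Distal intergenic summits were rare among strong peaks and became more common down the list. When the 6070 summits were divided by signal into 10 bins of 607 summits, the strongest bin held 3 of them and the weakest held 71. The counts from the strongest to the weakest bin were 3, 7, 25, 19, 32, 31, 55, 54, 63 and 71. In the pooled calls, 23930 summits ranked by signal below the strongest 6070, and 3429 of them met the same rule, a share of 14.3%. Those calls are named as peaks and background for input to IDR, so not all of them need be binding sites. For comparison, 30.0% of the bases of the chromosome arms meet the rule. The signal is the authors' own value, with a scale that is not stated, and was used only to rank or describe peaks within a list. The strongest 6070 regions of each replicate's own list gave 345, 262 and 305 distal intergenic summits in replicates 1, 2 and 3, a mean of 5.01% ± 0.684 (SD, n = 3). Replicate 2 had the lowest share, and all 3 had a smaller share than the IDR list.

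**Figure D1:**
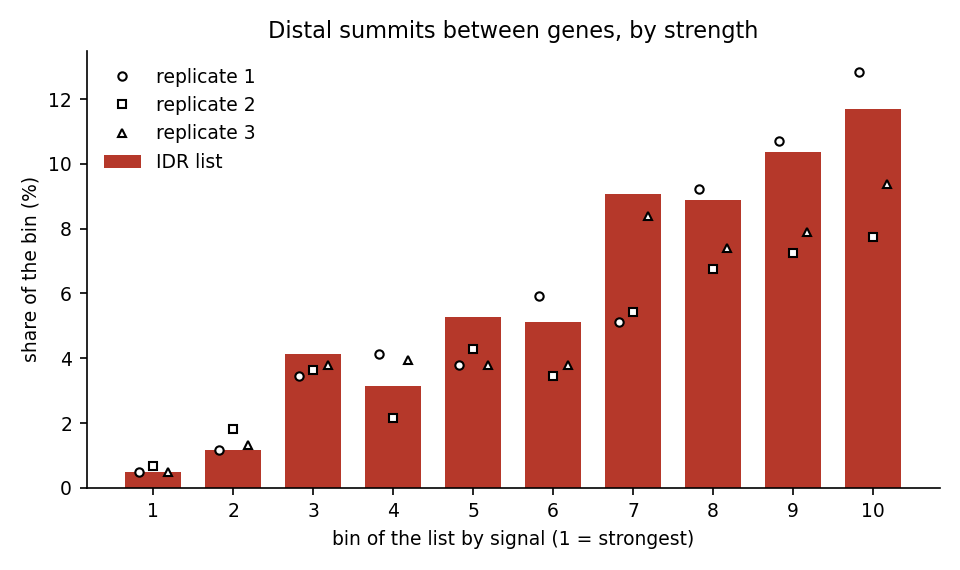
Share of distal intergenic summits (vertical axis, % of the 607 summits in each bin) by bin of the list in order of signal (horizontal axis, 1 is the strongest). Bars show the IDR list and open symbols the same number of strongest regions in each of the 3 replicates; the share is under 1% in the strongest bin of all 4 lists and above 7% in the weakest.

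The members were weaker than summits at starts in every replicate. In the IDR list their lowest, median and highest signals were 139, 298 and 8688, against medians of 233 for distal summits inside coding genes and 710 for summits at starts. Within the 6070 strongest regions of each replicate, where 0 is the strongest and 100 the weakest position, the median distal intergenic summit stood at 73.7, 70.4 and 69.2 in replicates 1, 2 and 3. Summits inside coding genes stood at 79.6, 73.5 and 78.3, and summits at starts at 45.9, 47.6 and 46.6. The distance between distal intergenic and start summits was 24.4 ± 2.93 percentile points (SD, n = 3), and it was larger than the spread between replicates. Distal intergenic summits ranked above distal summits inside genes in 3 of 3 replicates. Over 3 replicates an exact two-sided sign-flip permutation test of either difference gave p = 0.25, the smallest it can give. Their regions were also narrower, with a median width of 414 bp, against 436 bp inside genes and 650 bp at starts, and 56 members (15.6%) shared a region with another summit, against 15.1% inside genes and 27.8% at starts.

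Fewer of the members were found again in all libraries. Found in a replicate means that the summit fell within any of the 6070 strongest regions called in that library. By this measure 214 of 360 distal intergenic summits (59.4%) were found in all 3 replicates, against 4631 of 5710 other summits (81.1%), with a background of 79.8% over the whole list. The odds ratio was 0.342 (95% interval 0.274 to 0.426, two-sided Fisher's exact test, p = 7.35e-20). A further 67 were found in 2 replicates, 53 in 1 and 26 in none. Replicates 1, 2 and 3 held 84.4%, 68.1% and 77.8% of the members, so replicate 2 missed the most, and with that library left out 71.7% were found in both of the others. The percentage moved with the limit to the 6070 strongest regions, as 337 of the members (93.6%) lay in a region of all 3 whole replicate lists, where the log2 odds ratio against other summits was -1.57 (exact test, p = 2.33e-05), against -1.55 with the limit. Another count asked for a replicate summit within 100 bp instead of a region covering the summit. It found 56.7% of the members in all 3 replicates, with a log2 odds ratio of -1.20 (exact test, p = 3.33e-13). Summits are not biological replicates, and p-values over summits, here and below, measure only the spread between summits.

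Part of that difference went with signal. Within the 10 bins of like signal, pooled by the Mantel-Haenszel method, the odds ratio against other summits was 0.585 (0.414 to 0.828, p = 0.00479, n = 360 members). The gap lay at the weak end, where 11 of 63 members (17.5%) were found in all 3 replicates in bin 9, against 31.4% of other summits, and 3 of 71 (4.23%) in bin 10, against 17.2%. A weak summit can count as found through a region it shares with a stronger one, and 15.6% of members shared a region, against 27.8% of summits at starts. With 1 summit per region the log2 odds ratio over the whole list was -1.48 (exact test, p = 4.8e-17). Neither that setting nor the 100 bp count was run within bins. In the stronger 3035 summits, 98.8% of the members were found and the difference missed the threshold (Fisher's exact test, p = 0.159). Against distal summits inside coding genes the members did better, at 59.4% against 47.6% (odds ratio 1.61, Fisher's exact test, p = 0.000676). This was lost within bins (odds ratio 1.09, p = 0.815, n = 360 members).

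The 20 strongest members had signals of 2589 to 8688 and stood between ranks 218 and 1446 of the list. All 20 were found in all 3 replicates. Among them 18 held CGATA, 13 held at least 3 copies, 10 held TATCGATA, and 6 lay within 500 bp of the start of a non-coding RNA. For 11 of the 20 the highest and lowest replicate rank differed by less than 1.5-fold. A replicate rank is that of the strongest region covering the summit, so where summits share a region it can reflect a neighbouring summit. Of the 20, 6 shared a region with another summit of the list. At 15 of the 20 at least 1 flanking coding gene had a BEAF-32 summit at its own start. Over all members, 51 had such a summit at both flanking genes, 143 at 1 of them and 164 (45.8%) at neither. The 20 were not tested against the rest.

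**Figure D2:**
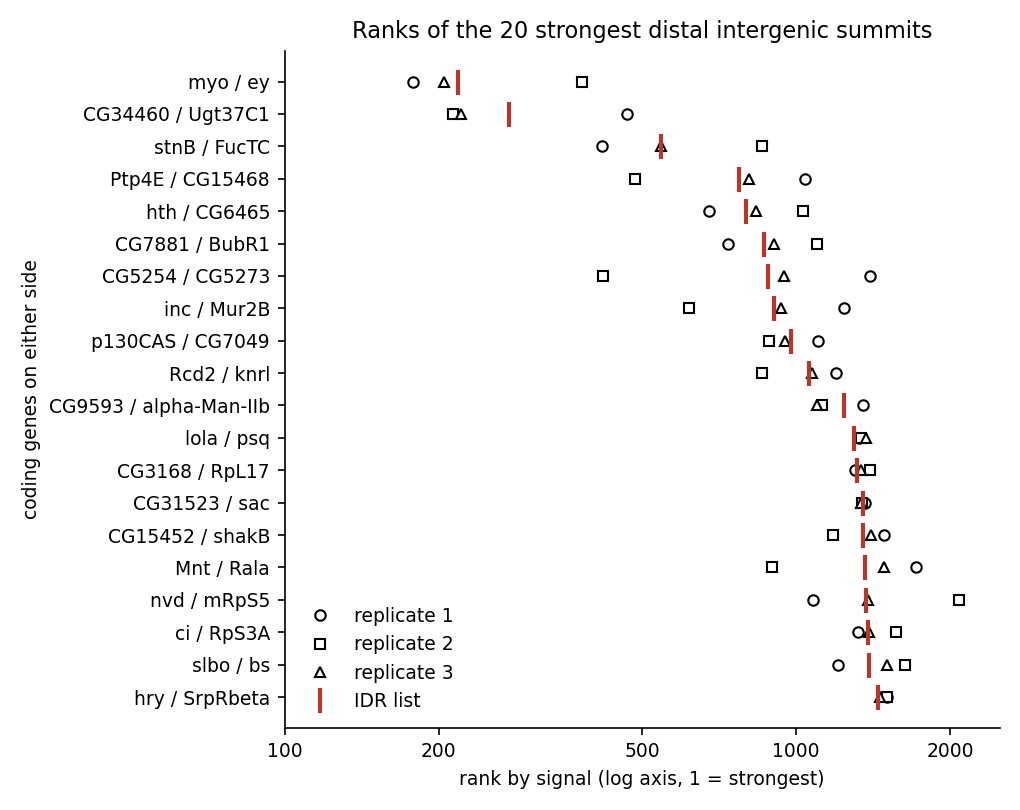
Rank by signal (horizontal log axis, 1 is the strongest) of the 20 strongest distal intergenic summits, each named by the coding genes to its left and right. Open symbols are the 3 replicates and the bar is the IDR list; the myo/ey and CG34460/Ugt37C1 summits lead the IDR list at ranks 218 and 275, and the widest spread is at CG5254/CG5273, at rank 420 in replicate 2 and 1395 in replicate 1.

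The strongest distal intergenic summit lay on chromosome 4 between myo, which encodes the TGF-beta family ligand myoglianin, and ey, the Pax6 gene of eye development. It had a signal of 8688 and ranks of 178, 382 and 205 in replicates 1, 2 and 3, stood 764 bp upstream of the nearest ey start and 870 bp from myo, and held 5 copies of CGATA. Its region held another summit too, and the nearest other summit of the list lay 772 bp away. Another chromosome 4 member lay between ci, the transcription factor of Hedgehog signalling, and the ribosomal protein gene RpS3A. It had a signal of 2794, ranks of 1321, 1567 and 1386, and 5 copies of CGATA.

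The second strongest, on arm 2R between CG34460 and the glycosyltransferase gene Ugt37C1, had a signal of 7911 and ranks of 466, 213 and 221. It had no CGATA within 100 bp. It lay inside the span of a non-coding gene, 144 bp upstream of a transcript start of lncRNA:CR43650. Next in order were the summit between stnB, a gene of synaptic vesicle recycling, and the fucosyltransferase gene FucTC, with a signal of 5894, and the summit 215 bp past the end of Ptp4E, a receptor tyrosine phosphatase gene, with a signal of 4877. The stnB/FucTC summit held 6 copies of CGATA and lay 11 bp from the start of asRNA:CR45009. The Ptp4E summit held 1.

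Several of the 20 had a transcription factor gene as a neighbour, in some cases far away, and no test of this kind of gene was made. The summit between hth, a homeodomain cofactor of Hox proteins, and CG6465 had a signal of 4751 and ranks of 674, 1031 and 834, and lay 35781 bp from hth but 211 bp from the end of CG6465. The summit between Rcd2 and knrl, a nuclear receptor gene related to knirps, had a signal of 3774 and lay 531 bp from the Rcd2 start and 56193 bp from knrl. The gap between the BTB-domain genes lola and psq held 3 members, the strongest with a signal of 2999.55 and 677 bp from a psq start. The summit between slbo, which encodes a C/EBP factor, and bs, the serum response factor gene, had a signal of 2762, and the one between hry, the pair-rule repressor gene hairy, and SrpRbeta had a signal of 2589, ranks of 1508, 1503 and 1461, and lay 172 bp past the SrpRbeta end.

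The other members among the 20 had neighbours of many kinds. The summit between CG3168 and RpL17, a gene of the large ribosomal subunit, had a signal of 2964, ranks of 1303, 1394 and 1341, and 5 copies of CGATA, 236 bp past the RpL17 end. The summit between nvd, an ecdysone synthesis gene, and the mitochondrial ribosomal protein gene mRpS5 had a signal of 2821 in a gap of 135580 bp, and its ranks of 1077, 2085 and 1381 put it lowest in replicate 2. The summits beside BubR1, a spindle checkpoint kinase gene, shakB, an innexin gene, and Rala, a small GTPase gene, had signals of 4463, 2876 and 2853. The remaining ones lay between CG5254 and CG5273 (4369), inc and Mur2B (4257), p130CAS and CG7049 (4024), CG9593 and alpha-Man-IIb (3186), and CG31523 and sac (2881), each number being the signal.

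CGATA was concentrated at the members. It lay within 100 bp of 185 of 360 distal intergenic summits (51.4%, interval 46.2 to 56.5), against 22.8% of windows 1 kb to the left and 22.5% of windows 1 kb to the right of the same summits (exact McNemar test, the larger p of both sides, adjusted over 7 strings, p = 1.77e-14). The background over all IDR summits was 58.3%. TATCGATA lay at 46 members (12.8%), against 1.67% and 0.833% of flanks (exact test, adjusted p = 3.61e-08), with a background of 16.9%. Of the flanks, 72 to the left and 69 to the right were centred within 500 bp of a coding start, and 66 on each side inside a coding gene. Among the 166 members whose flanks on both sides were themselves distal and intergenic, a restriction chosen after seeing the data, CGATA lay at 37.3% of summits, against 19.3% and 21.1% of flanks (exact test, adjusted p = 0.0109).

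The copies of CGATA were packed around the summit. The 50 bp to the left of the summit held 0.389 copies per member and the 50 bp to the right 0.361, against 0.355 and 0.335 at distal summits inside genes and 0.491 and 0.473 at summits at starts. From 50 to 100 bp away the members held 0.128 copies to the left and 0.122 to the right.

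**Figure D3:**
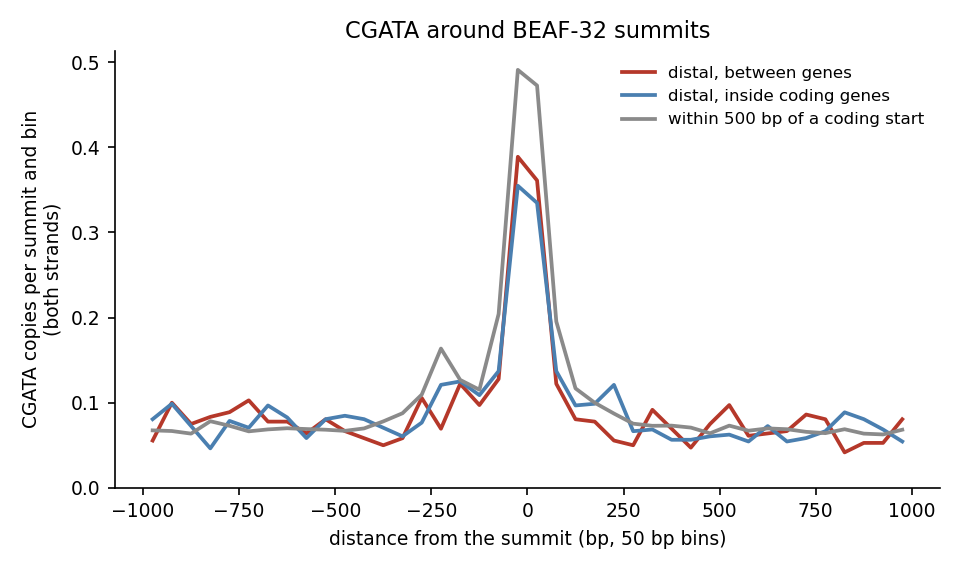
CGATA copies on both strands per summit (vertical axis) in 50 bp bins by distance from the summit (horizontal axis, bp), for distal intergenic summits, distal summits inside coding genes and summits within 500 bp of a coding start. All 3 lines peak in the bins next to the summit, at 0.389, 0.355 and 0.491 copies, and are near 0.1 or below at most distances beyond 300 bp.

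Compared with summits at coding starts, distal intergenic summits held CGATA less often as a whole and more often at equal signal. The shares were 51.4% and 59.6% (odds ratio 0.717, 0.579 to 0.888, Fisher's exact test, p = 0.00953 adjusted over 14 comparisons of 7 strings with 2 classes). This call was lost when summits near non-coding starts were left out (exact test, adjusted p = 0.0691) and with windows of 50 bp to each side (adjusted p = 0.156), with log2 odds ratios of -0.40 and -0.31, against -0.48 in the whole list. In the stronger 3035 summits the direction turned, to a log2 odds ratio of 0.36 (exact test, adjusted p = 0.862). Within bins of like signal, a comparison added after seeing the data, the direction turned and the odds ratio was 1.53 (1.21 to 1.94, adjusted p = 0.00169, n = 360 members). TATCGATA did the same, with 12.8% against 17.8% as a whole (odds ratio 0.677, exact test, adjusted p = 0.0408). Within bins its odds ratio was 1.74 (1.22 to 2.48, adjusted p = 0.00685, n = 360 members), and the call for the whole list was lost in exact tests without summits near non-coding starts (log2 odds ratio -0.54, against -0.56, adjusted p = 0.0854) and with 50 bp windows (-0.36, adjusted p = 0.294). In the stronger 3035 summits its log2 odds ratio was 0.16 (exact test, adjusted p = 0.982). In the 6070 strongest regions of each replicate, CGATA lay at 50.4%, 56.9% and 54.4% of distal intergenic summits in replicates 1, 2 and 3, a mean of 53.9% ± 3.25 (SD, n = 3). At summits at starts the shares were 59.1%, 57.5% and 58.0%, a mean of 58.2% ± 0.819, so the difference had 1 direction in 3 of 3 replicates but was small in replicate 2.

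Against distal summits inside coding genes no such difference passed the threshold. CGATA lay at 51.4% of members and 49.6% of summits inside genes (odds ratio 1.07, 0.819 to 1.41, Fisher's exact test, adjusted p = 0.676), and TATCGATA at 12.8% and 10.9% (odds ratio 1.20, 0.789 to 1.82, adjusted p = 0.574). In the stronger 3035 summits alone CGATA was more common at members than inside genes (exact test, adjusted p = 0.0388).

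Members with more CGATA copies were stronger and were found again more often. The 175 members with 0 copies had a median signal of 228, the 87 with 1 copy 330, the 50 with 2 copies 366 and the 48 with at least 3 copies 1142. Both strands were counted, and TATCGATA therefore adds 1 copy on each. The shares found in all 3 replicates in the same order were 41.7%, 67.8%, 80.0% and 87.5%. Over the 360 members the Spearman correlation of copies with signal was 0.459, against 0.162 over the 496 distal summits inside genes and 0.577 over the summits at starts. These describe peaks that share the same libraries and carry no p-value. Inside genes the median signal was 214 at 0 copies and 279 at 3 or more, so the increase was much smaller there. The members with TATCGATA had a median signal of 866, against 352 for those with CGATA alone.

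Strings of other boundary and promoter proteins also differed between the members and summits at starts. GGTCACACT, the core of the promoter string known as motif 1, lay at 5 of 360 members (1.39%), against 495 of 5214 summits at starts (9.49%, odds ratio 0.134, 0.0553 to 0.326, exact test, adjusted p = 1.09e-08), with a background of 8.27%. AGGTGGCG, from the core of the CTCF site, went the other way, with 13 members (3.61%) against 34 summits at starts (0.652%, odds ratio 5.71, 2.98 to 10.9, exact test, adjusted p = 3.61e-05) and a background of 0.956%. GCATACTTT, from the site of the insulator protein Su(Hw), lay at 9 members (2.50%) and 17 summits at starts (0.326%, odds ratio 7.84, 3.47 to 17.7, exact test, adjusted p = 9.64e-05), with a background of 0.494%. All 3 differences held within bins of like signal, with odds ratios of 0.124, 5.58 and 5.60. Each also had 1 direction in 3 of 3 replicates, the Su(Hw) string lying at 2.45% ± 0.554 of distal intergenic summits and 0.309% ± 0.0262 of summits at starts (SD, n = 3). In exact tests the call for AGGTGGCG was lost at a start distance of 2000 bp (log2 odds ratio 1.52, against 2.51, adjusted p = 0.0910) and in the stronger 3035 summits (2.29, adjusted p = 0.109). The call for GCATACTTT was lost with windows of 50 bp (log2 odds ratio 2.64, against 2.97, exact test, adjusted p = 0.106).

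The CTCF and Su(Hw) strings did not pass the threshold against the members' own flanks. AGGTGGCG lay at 1.67% and 0.556% of flanks (exact test, adjusted p = 0.251, but 0.0302 with flanks at 500 bp), and GCATACTTT at 0% and 0.278% (adjusted p = 0.0501). Against distal summits inside genes AGGTGGCG had an odds ratio of 1.65 (0.731 to 3.73) and GCATACTTT one of 3.15 (0.964 to 10.3), both short of the threshold. GGTCACACT lay at 2 of 496 distal summits inside genes (0.403%), and its odds ratio of 3.48 also missed the threshold (exact test, adjusted p = 0.242). Its low share, compared with summits at starts, was therefore not particular to the members. A match to these letters is not evidence of a bound protein. GAGAG, the string of GAGA factor, lay at 60 members (16.7%), against a background of 16.1%, and was less common than at distal summits inside genes, at 23.2% (odds ratio 0.663, exact test, adjusted p = 0.0479). That call was lost within bins (adjusted p = 0.107, n = 360 members), and under 6 other settings (exact tests, adjusted p from 0.118 to 1). CAGGTAG, the string of the early embryonic activator Zelda, lay at 5 members, with a background of 0.807%.

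**Figure D4:**
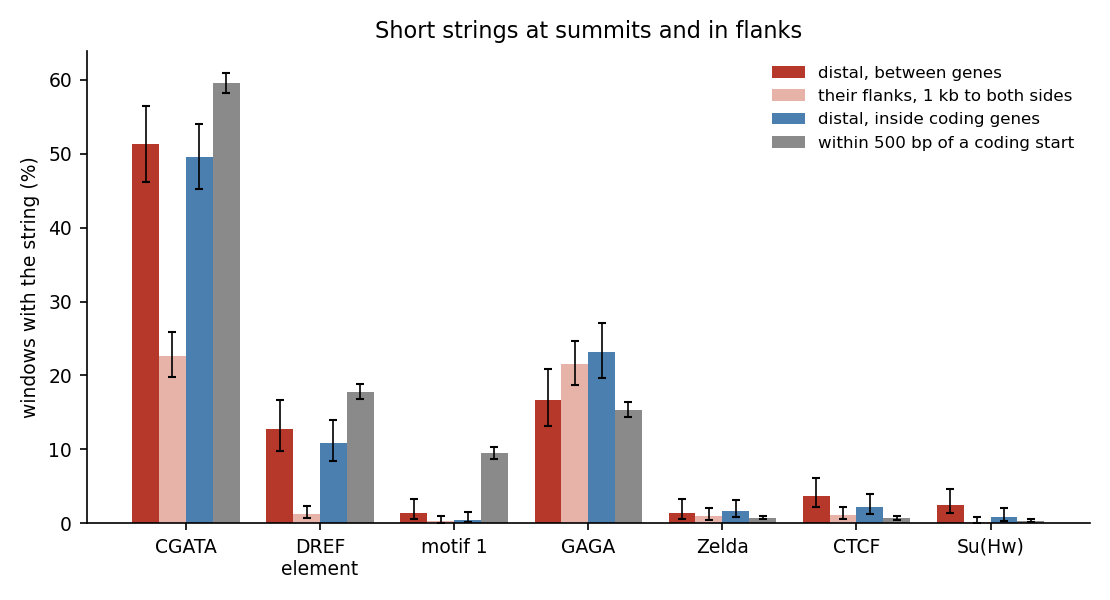
Share of windows reaching 100 bp to each side that hold each string on either strand (vertical axis, %), at distal intergenic summits, in their flanks 1 kb to both sides, at distal summits inside coding genes and at summits within 500 bp of a coding start. Error bars are 95% Wilson intervals for counting error only; CGATA lies at 51.4% of members and 59.6% of start summits, and motif 1 at 1.39% and 9.49%.

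The members with the CTCF and Su(Hw) strings include places known from developmental loci, and those named here were chosen after their values were seen. GCATACTTT lay at the summit between CG12134 and the pair-rule gene eve, with a signal of 2494, ranks of 1542, 1383 and 1586, and no CGATA. That gap holds the eve boundary element known as nhomie, and the summit lay 60 bp past the CG12134 end and 6479 bp upstream of eve. It also lay 88 bp upstream of a start of asRNA:CR46453, and its position was not compared with that of nhomie. The same string lay at a summit between Glut3 and the Hox gene abd-A, with a signal of 154, and at the summit 537 bp from Cnx99A, with a signal of 1181. The strongest summit with AGGTGGCG lay between CG4593 and CG12541, with a signal of 2125, and another lay between zfh1 and wts, the kinase gene of Hippo signalling, with a signal of 583. GGTCACACT lay at a summit 30 bp upstream of the start of lncRNA:roX2, an RNA of dosage compensation on X, with a signal of 486 and ranks of 3929, 3491 and 3867.

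A count of all hexamers around the members, each taken with its complement, gave 13 that were more common at summits than in both flanks (adjusted p below 0.05 over all hexamers), a background of 0.625%, and 3 that were less common. Of the 13, 6 hold CGAT or its complement ATCG, led by TATCGA at 30.8% of summits, against 9.17% and 8.61% of flanks (exact McNemar test, adjusted p = 5.79e-10). The one with the lowest p-value outside those 6 was CGTGAC, at 47 summits (13.1%), against 0.833% and 3.61% of flanks (exact test, adjusted p = 0.000706), and GCGTGA, which overlaps it, lay at 13.3%, against 3.89% and 5.28% (adjusted p = 0.0253). Of the remaining 5, the most frequent was AAAATT, at 46.1% of summits, against 30.0% and 30.3% of flanks (exact test, adjusted p = 0.00288). Next came TTCAAA, at 36.7%, against 20.3% and 22.2% (exact test, adjusted p = 0.00251). The 3 less common ones, led by GGAGGA, are rich in G and C, and each lay at 1.39% to 1.67% of summits, against 6.94% to 11.4% of flanks, part of which lie in genes. The count of 13 moved with the settings, from 52 at a start distance of 250 bp to 2 at 2000 bp, and it was 2 where both flanks were distal and intergenic.

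CGTGAC is described further across the classes, with no test, since it was chosen after the values were seen. It lay at 13.1% of distal intergenic summits, 16.3% of distal summits inside genes and 4.93% of summits at starts, and GCGTGA at 13.3%, 16.7% and 5.31%. Among the 175 members with no CGATA it lay at 26 (14.9%), and among the 185 with CGATA at 21 (11.4%). Members with CGTGAC and no CGATA had a median signal of 255, against 223 for those with neither. The summits beside Ptp4E, inc and RpLP0, printed above, all hold it.

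The members without CGATA included strong summits. After CG34460/Ugt37C1 the leading ones were the summit 85 bp past the end of inc, a gene needed for normal sleep, with a signal of 4257 and ranks of 1241, 616 and 935, and the eve summit. They were followed by a summit between RpLP0, a ribosomal protein gene, and Sfp79B, with a signal of 2331 and ranks of 1733, 1314 and 1588, and one between alphaTub84B, a tubulin gene, and e(y)2b, with a signal of 1910 and ranks of 1925, 1638 and 1742. All 5 were found in all 3 replicates.

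The members sat nearer to genes than the sequence that was open to them. Bases that meet the same rule made up 40.1 Mb, or 30.0% of the chromosome arms. A coding start lay within 501 to 1000 bp of 73 members (20.3%), against 5.65% of those bases, and more than 10000 bp away from 59 members (16.4%), against 45.5% of those bases. The distance to the nearest coding start had a minimum of 507 bp, a median of 2678 bp and a maximum of 58308 bp. The ends of coding genes showed the largest ratio of the places counted, as 98 members (27.2%, interval 22.9 to 32.0) lay within 500 bp of one, against 4.94% of the bases. Those 98 had a median signal of 395 and CGATA at 63.3%, against 276 and 46.9% in the other 262. No test was made against bases, since neighbouring bases are not independent. The open bases were not filtered for repeats or for how well reads can be placed there. Of them 26.1% are masked as repeats in the genome sequence, against a median of 15.4% of the 201 bp member windows. What this does to the shares was not tested.

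**Figure D5:**
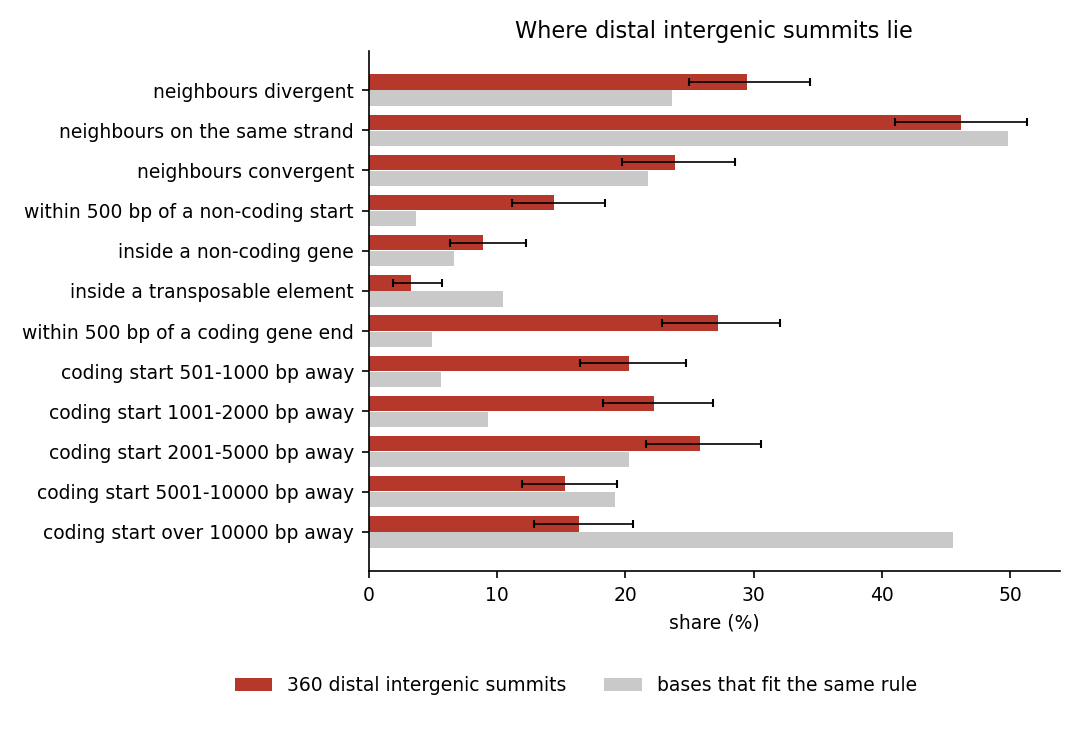
Share of the 360 distal intergenic summits (upper bar of each pair, with 95% Wilson intervals for counting error only) and of the bases that meet the same rule (lower bar) by orientation of the neighbouring coding genes, nearby features and distance to the nearest coding start (horizontal axis, %). The summits exceed the bases most at coding gene ends, at 27.2% and 4.94%, and fall below them beyond 10000 bp from a start, at 16.4% and 45.5%.

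Of the 3 orientations of the neighbouring genes, divergent pairs exceeded their share of the bases by the most. Divergent neighbours flanked 106 members (29.4%), against 23.7% of bases, neighbours on the same strand flanked 166 (46.1%), against 49.8%, and convergent neighbours flanked 86 (23.9%), against 21.8%. Their median signals were 284, 294 and 325 in that order, and CGATA lay at 50, 91 and 43 of them. The other 2 members lay beyond the last coding gene of an arm. The gaps had a median length of 8610 bp, 35 members lay in gaps of at most 1000 bp, and 31 in gaps over 50000 bp.

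Some gaps held several members. In all, 131 members shared 58 gaps, and the gap between CG43402 and CG31928 on 2L held 5 over 33447 bp, with signals of 153 to 2156. The gap between Pld and jing, a zinc-finger gene, held 4 over 233045 bp, with signals of 142 to 1231, and that between CG10479 and PVRAP held 4 over 10399 bp, with signals of 306 to 581. The paired homeobox genes B-H2 and B-H1 had 3 members between them, 68655 bp apart at the most, with signals of 292 to 462. In some shared gaps the members were close together, as between Tpr2 and CG5953, where 2 lay 199 bp apart. Another summit of the list lay within 1000 bp of 92 members (25.6%), and these had a median signal of 428, against 260 for the other 268. That share was lower than for distal summits inside genes (29.0%), summits at starts (37.0%) and the whole list (35.6%), with no test made.

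Many members lay at starts of non-coding genes. A start of a non-coding gene lay within 500 bp of 52 members (14.4%, interval 11.2 to 18.5), against 3.70% of bases open to the rule, and against 5.04% of distal summits inside genes and 4.49% of summits at starts, a difference that was not tested. The class was set by coding genes only, so a non-coding start did not remove a summit. Of the 52, 49 were at genes annotated simply as ncRNA, and 33 of those summits lay upstream of the nearest transcript start. A summit upstream of one transcript start can still lie inside the gene. CGATA lay at 42.3% of the 52 and at 52.9% of the other 308. The 5 strongest were at lncRNA:CR43650, asRNA:CR45009, lncRNA:CR44127, asRNA:CR45806 and asRNA:CR45891, with signals of 7911, 5894, 4463, 4024 and 3186. The gene of lncRNA:Hsromega, a long RNA induced by heat shock, had 2 summits around its start, one 67 bp upstream with a signal of 2574 and ranks of 1706, 999 and 1356, and a weaker one within it with a signal of 688. A summit with a signal of 212 lay 2 bp from a start of lncRNA:roX1 and was found in 2 replicates. These named RNAs other than the first 5 were chosen after their values were seen.

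Transposable elements held few members. They covered 12 summits (3.33%, interval 1.92 to 5.74), against 10.5% of the bases open to the rule, and none of those among the stronger 3035 summits. That share was still higher than in the other classes, at 1.21% of distal summits inside genes and 0.192% of summits at starts. Over the whole list it was 0.461% (28 of 6070), and these differences were not tested. INE-1 elements held 5 of the 12, with a highest signal of 504 between CG8565 and ArgRS. CGATA lay at 9 of the 12. The sources used here do not say how reads that match several copies of an element were placed, so these positions are uncertain.

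The coding genes beside the members had a share of bound starts close to that of all genes beside comparable sequence. The 360 members were flanked by 548 coding genes, 3.93% of all 13945, and 195 of the 548 (35.6%, interval 31.7 to 39.7) had a summit of the IDR list at most 500 bp from a start. The share was 35.8% among the 8098 genes beside any base open to the rule and 43.7% among all coding genes. Both neighbours were bound at 51 members, 1 neighbour at 143, and neither at 164 (45.8%).

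Of 8 Hox genes, which set segment identity, 3 (37.5%) flanked a member, namely Dfd and Scr on either side of a summit with a signal of 253 and ranks of 5490, 5596 and 5111, and abd-A beside a pair of summits with signals of 245 and 154. None of 20 boundary protein genes did. Of 158 ribosomal protein genes, cytosolic and mitochondrial, 9 did (5.70%), led by RpL17, mRpS5 and RpS3A, already described. Of 121 cuticle protein genes 1 did, Cpr65Ec, and of 179 chemoreceptor genes 5 did (2.79%), among them Gr2a, Or22b and Gr89a. The share over all coding genes was 3.93%. No test of these lists was made, and Hox genes lie close together on the chromosome, so they are not independent.

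Chromosome 4 had the densest members. Of its 88 IDR summits 17 were distal and intergenic (19.3%, interval 12.4 to 28.8), against 4.73% to 6.30% on the other arms, and they stood at 57.1 per Mb of open bases, against 6.98 to 11.1 elsewhere. CGATA lay at 12 of the 17 (70.6%). Besides those at ey and ci they included 2 each between 4E-T and fuss and between Asator and zfh2, and 11 of the 17 were found in all 3 replicates. The other arms had 65 to 72 members each, with median signals of 266 to 319, and 2L stood out for its CGATA, at 24 of 68 members (35.3%), against 52.8% to 55.4% on X, 2R, 3L and 3R. No test of the arms was run.

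The 5 members farthest from any coding start had signals of 144 to 694. They lay 58308 bp from spok, an ecdysone synthesis gene, in the gap before Parp1 (signal 160), 43440 bp from CG17571 (694), 42084 bp from jing (144), 40595 bp from Cadps at the end of chromosome 4 (321) and 39472 bp from CG41128 (179). The one near CG17571 held 4 copies of CGATA and was found in all 3 replicates, as was the one near Cadps, which lies in a telomeric TART-A element. The spok summit held 5 copies of CGATA, but its ranks of 5485, 10043 and 6229 put it among the strongest 6070 regions in replicate 1 only.

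The 5 members nearest to the 500 bp threshold lay 507 to 517 bp from starts of CG32091, CG3505, CheB93a, CG43066 and Reph, with signals of 363, 823, 892, 2100.3 and 361. The 5 excluded summits nearest to that threshold lay 491 to 498 bp from starts of CG2201, PolQ, sff, bam and Glyp, with signals of 1391, 209.6, 1006, 260 and 185.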

How the data were processed

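The data were 3 libraries of immunoprecipitated DNA from BEAF-32-GFP embryos, with chromatin sheared to 200 to 800 bp. Peak regions with a signal each were deposited by the authors; per the file headers they were called with a control alignment, for each replicate and for the pooled replicates, and then thresholded by IDR. The sources used here give no aligner, caller, versions, thresholds, read totals or scale of the signal. Depth is therefore unknown and Wilson intervals cover counting error only. The deposited summit offsets were turned into 1-based dm6 positions. The dm3 lists were not used.

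Of the deposited lists, 5 were analysed. Coding genes came from Ensembl BDGP6.54 and bases from the RefSeq copy of dm6. Strings were sought on both strands within 100 bp of a summit. McNemar and Fisher tests were two-sided and exact, odds ratios carry Woolf intervals, values within bins of signal are Mantel-Haenszel estimates, and Benjamini-Hochberg adjusted p-values were called below 0.05. A replicate's rank of a summit is that of its strongest region covering the summit. Genes were named by rule: the neighbours of the 20 strongest members and of the 5 strongest with TATCGATA, the 5 strongest without CGATA, the 5 farthest from starts, the 5 on each side of the 500 bp limit, the 5 strongest at non-coding starts, and up to 3 per gene list; sequences on arm 2R are not printed. The members and lists were chosen with earlier results of these data known. Scripts were tested on simulated data, where the hexamer test missed most strings added to a small share of windows, so its list is not complete. Python 3.11.15 was used with scipy 1.17.1 and numpy 2.4.6 for tests, statsmodels 0.14.6 for pooled odds ratios and Wilson intervals, pandas 2.3.3 for tables and matplotlib 3.10.9 for figures.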

Additional observations from a re-analysis of the deposited data

How the results depend on the processing

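Of 272 alternative values for 29 results, 213 kept their direction and side of the threshold or stayed within the spread, and 21 turned direction. The share of the list was 8.73%, 4.73% and 3.41% with distances of 250, 1000 and 2000 bp, and 2.83% in the stronger 3035 summits. The rank difference from start summits was 28.2 points at 2000 bp and 16.7 in the stronger 3035, and 22.7 to 25.3 with 1 replicate left out. The log2 odds ratio of being found in all replicates was -2.79 in the stronger 3035 (exact test, p = 0.159, main value -1.55), and ran between -1.71 and -1.48 with 1 replicate left out.

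For CGATA against start summits the log2 odds ratio turned to 0.36 in the stronger 3035 and to 0.61 within bins of signal, and was -0.40 without summits near non-coding starts and -0.31 with 50 bp windows. TATCGATA turned to 0.16 and 0.80 in the first 2 of these settings. CGATA against summits inside genes had a main value of 0.10 and was 1.41 in the stronger 3035, -0.25 and -0.58 at 1000 and 2000 bp, and -0.11 within bins.

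The other turns in direction were of differences that miss the threshold in both settings. As log2 odds ratios, TATCGATA against summits inside genes was -0.083 and -0.54 at 1000 and 2000 bp and -0.028 within bins, GGTCACACT against them -0.017 in the stronger 3035, GAGAG against start summits -0.050 within bins, CAGGTAG against start summits -0.17 in the stronger 3035 and -0.18 with 200 bp windows, and CAGGTAG against summits inside genes 0.26 at 2000 bp and 0.14 with 50 bp windows. As percentage points against flanks, CAGGTAG was -1.16 in the stronger 3035, -0.694 with 200 bp windows and -0.417 with flanks at 2000 bp, GGTCACACT -1.16 in the stronger 3035, and GAGAG 0.301 with distal flanks.

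The hexamers more common at summits were 52, 7 and 2 at 250, 1000 and 2000 bp, 4 in the stronger 3035, 8 with 50 bp windows and 2 where both flanks were distal and intergenic. The comparisons within bins of signal of strings, and those with distal flanks, were added after seeing the data. The cause was not tested, though fewer summits enter at 1000 and 2000 bp, in the stronger 3035 and with distal flanks.

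Restricting the list to the 6 arms was not run as a separate setting, because all its summits lie there. No paired analysis of groups was possible because the study has only 1 group; classes of summits were compared within each of the 3 replicates. Depth is unknown, so what it limits could not be computed.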
